A study of Canis lupus familiaris with 5 samples.

Results

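Binding of 3 double homeobox transcription factors was described at 9 genes of the dog sarcomere and muscle membrane: MYOM1, MYH1, MYL1, NEB, TPM3, ACTN2, LDB3, MYOZ2 and DYSF. They were taken from 11509 named genes in the deposited peak lists, as every peak whose assigned gene carried one of these symbols, dog or human homolog. The DUX4 list held 39 such peaks of 85825, the DUXC list 1 of 6031 and the DUXC-ALT list 0 of 561. Of the 9 symbols, TPM3 marked a locus of only 719 bp, which may not be the muscle gene. Without it the DUX4 list held 34 peaks. The peaks came from chromatin immunoprecipitation and sequencing (ChIP-seq) of an immortalized canine myoblast line, with 1 library per factor. The study addressed the functional similarity of the canine isoforms to human DUX4.

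Human DUX4 was expressed from a monoclonal line, canine DUXC from a monoclonal line and its isoform DUXC-ALT from a polyclonal line, each doxycycline inducible in the pCW57.1 vector (1 µg/ml, 24 hours). Per the labels, both canine proteins were chimeras: their C-terminal part was taken from DUX4, and 1 rabbit antiserum against that part served all factors. A polyclonal and a monoclonal luciferase line, labelled as not doxycycline inducible, were the controls of the series and were not analysed here. Factor and clonality cannot be told apart for DUXC-ALT, and a monoclonal line is 1 clone. Peak lists hold no expression values, so the myoblast label could not be checked against marker genes.

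The sarcomere is the contractile unit of striated muscle. Myosin thick filaments, held in register at the M band, slide along actin thin filaments that are anchored in the Z disc, and the muscle membrane around them is resealed after injury by a repair machinery that includes dysferlin. DUX4 is a transcription factor of the early embryo. Its misexpression in skeletal muscle causes facioscapulohumeral dystrophy, and in human muscle cells it interferes with myogenic differentiation. A peak near a gene is a position of recovered DNA and does not show that the gene's expression changed.

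Every one of the 9 genes had a DUX4 peak assigned to it, as did 97.5% of all named genes, because genes enter the list of names through their peaks. Fold enrichment, the authors' ratio of the peak's height plus 1 to the local background plus 1, ran from 4.31 at TPM3 to 28.5 at MYOM1 over the 39 DUX4 peaks. Its median was 7.05 (quartiles 5.85 and 8.08), against 7.37 over all DUX4 peaks (5.89 and 9.68). The list median was exceeded by 17 of the 39 peaks. Pileup, the caller's signal height, had a median of 15.6 at the 9 genes, against 17.4 over all DUX4 peaks. A fold enrichment of at least 10 was reached by 7 of the 39 (17.9%), against 23.2% of all DUX4 peaks. The DUX4 peaks at these genes thus lay across the range of the list, with a single one near its top. Their -log10 q-values from the peak caller ran from 3.84 to 72.7. With 1 library per factor there is no replicate error behind any value, and the number of sequenced reads is unknown from the lists.

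**Figure D1:**
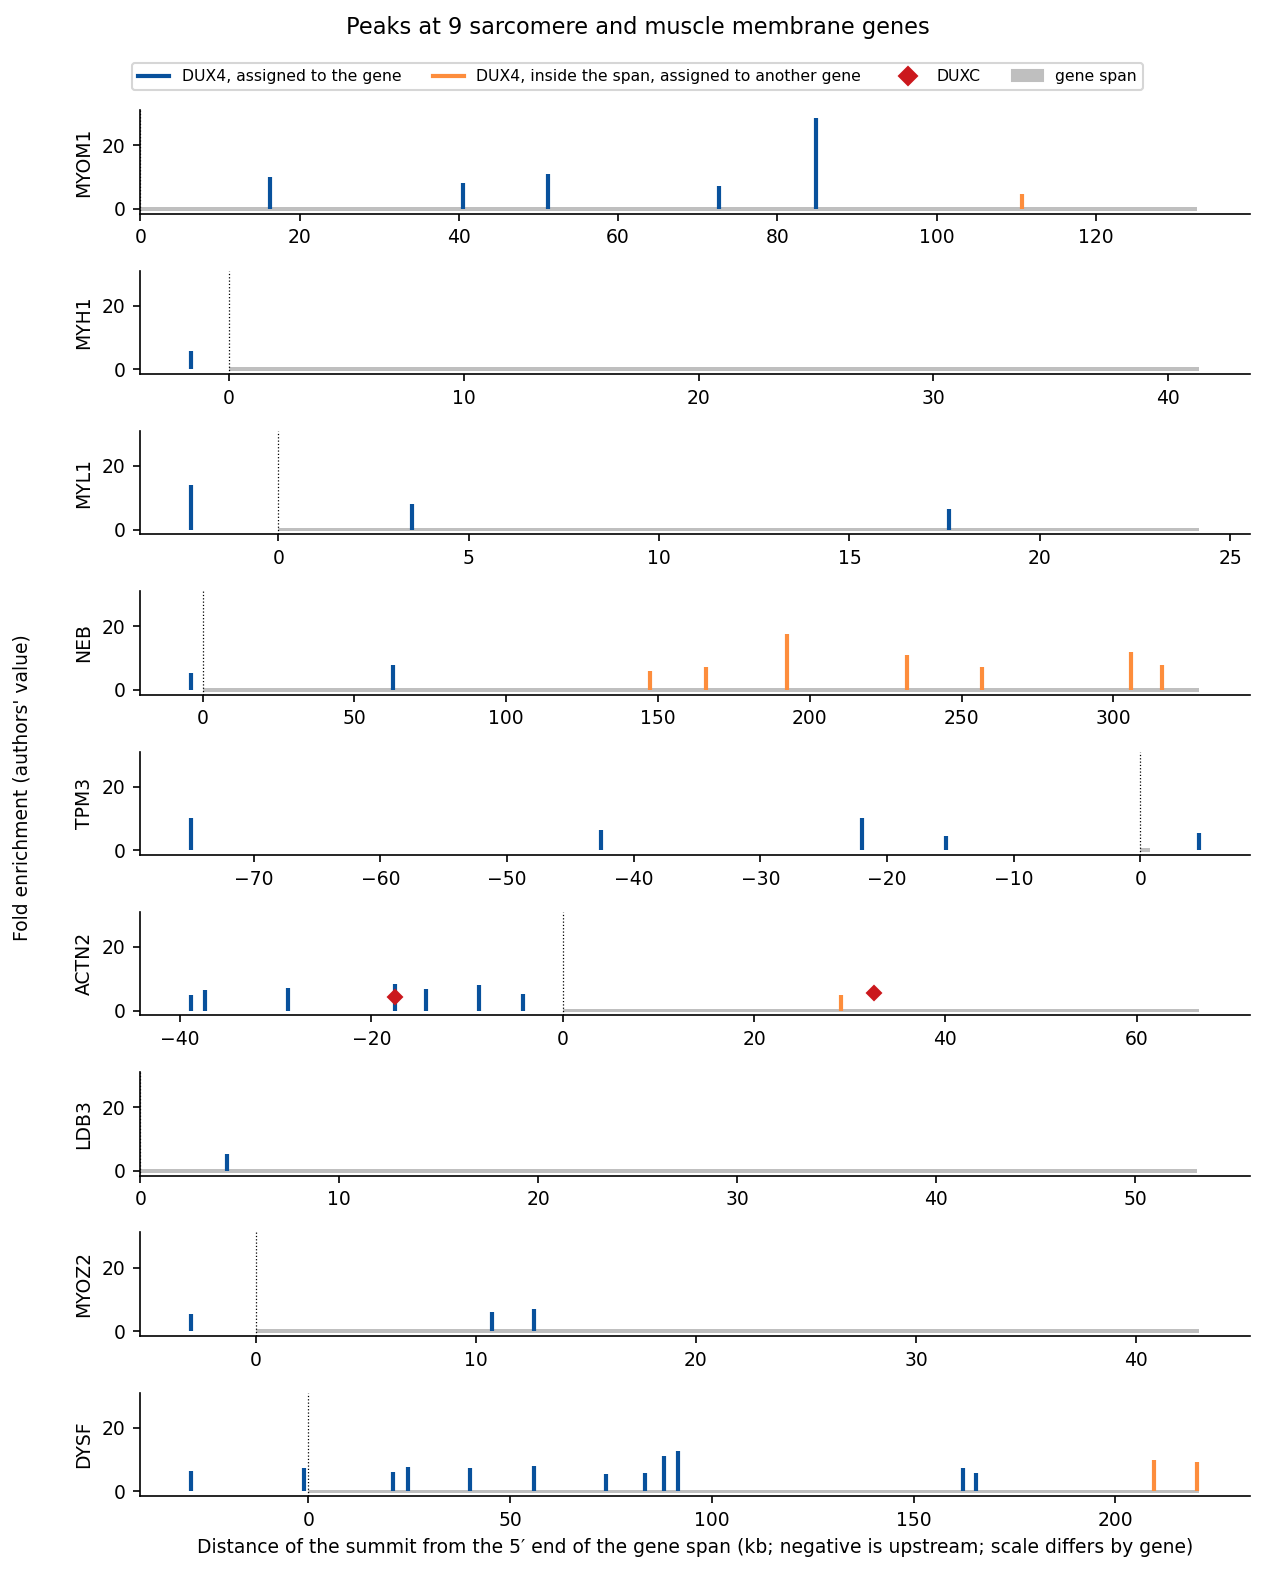
Position of each peak summit along the 9 genes (horizontal axes, kb from the 5′ end of the gene span, with a different scale for each gene) and its fold enrichment (vertical axes). Blue lines are DUX4 peaks assigned to the gene, orange lines are DUX4 peaks inside the span that were assigned to another gene, red diamonds are DUXC peaks and grey bars are gene spans; the tallest line, 28.5, is in MYOM1, and both DUXC diamonds are at ACTN2.

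MYOM1 encodes myomesin, which crosslinks thick filaments at the M band. It held the strongest site of the set. The gene (ENSCAFG00000018478.4) spans chromosome 7, 69701355 to 69834023, on canFam3, and 5 DUX4 peaks were assigned to it, all in its introns. In transcript order, the peak in intron 1 had a fold enrichment of 10.1, that in intron 7 one of 8.08, that in intron 10 one of 11.0 and that in intron 18 one of 7.05. The peak in intron 21 of 36 (69748848 to 69749336, 84687 bp from the transcription start site, TSS) had a fold enrichment of 28.5. It ranked 19th of all 85825 DUX4 peaks and 7th of the 40016 DUX4 peaks with a named gene. Its pileup was 58.7, the highest of the 39 peaks, and no repeat was recorded under it. The local background beside it was 1.09, the floor of the list. Neither canine factor had a peak assigned to MYOM1. Its nearest DUXC summit was 30.03 kb away from the gene and its nearest DUXC-ALT summit 351 kb.

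MYH1 and MYL1 encode a fast-fibre myosin heavy chain and the fast-muscle essential light chains, the motor part of the thick filament. MYH1 (ENSCAFG00000030337.2, chromosome 5, 34777628 to 34818941) had 1 DUX4 peak, 1534 bp upstream of its TSS. Its fold enrichment was 5.77 and its pileup 11.9, below the list medians, and no DUX4 summit lay inside the gene. MYL1 (ENSCAFG00000013875.5, chromosome 37, 18143885 to 18168071) had 3 DUX4 peaks. The strongest lay 2081 bp upstream of the TSS of the longer transcript (18170152 to 18170599), in an L1MC3 copy, with a fold enrichment of 14.1 and a pileup of 28.4. This was the strongest peak within 5 kb of a TSS in the set. The other MYL1 peaks lay in intron 1 (7.89) and in exon 4 of 8 of a MYL1 transcript (6.61), outside recorded repeats. The exon peak was 5027 bp downstream of the TSS of the shorter transcript. The intron 1 peak was 3368 bp downstream of the TSS of the longer transcript, and so between that start and the start of the shorter one.

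NEB encodes nebulin, a giant protein that runs along the thin filament, and TPM3 a tropomyosin that covers the myosin-binding sites of actin. NEB (ENSCAFG00000005717.4, named here only through its human homolog) had 2 DUX4 peaks assigned. The peak in intron 26 of 98 (chromosome 19, 52835289 to 52835550) had a fold enrichment of 7.67 and the peak 3890 bp upstream of the outermost TSS one of 5.45. The upstream peak was annotated in an intron of a neighbouring gene that the lists do not name. Summits inside the NEB span were more numerous than the assignment shows. A further 7 DUX4 summits lay between 52569956 and 52898204, the ends of the NEB span, and were assigned to other genes, since the authors' tables name the gene of the nearest TSS. Of these, 4 were annotated in NEB introns (fold enrichment 7.93, 11.9 and 7.30 in intron 71 and 5.92 in intron 48). Intron 71 was the last of that transcript, and its summits were assigned to TNFAIP6 or RIF1, upstream of their TSS. Whether that stretch is part of nebulin was not tested. The annotated span of NEB also covers RIF1, and the strongest summit inside it, 17.6, lay in exon 31 of RIF1. TPM3 peaks need care. The symbol belongs here to a locus of 719 bp on chromosome 30 (ENSCAFG00000008619.3, 5316940 to 5317658), whereas the RefSeq gene table of another dog assembly places TPM3 on a different chromosome. The other 8 genes were on the same chromosome in both. Whether this short locus is the tropomyosin gene of muscle was not tested. Its 5 DUX4 peaks were all distal intergenic, with fold enrichment between 4.31 and 10.1, and none lay inside the locus. The nearest was 4532 bp downstream of the TSS (5.30).

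ACTN2, LDB3 and MYOZ2 encode Z disc proteins: alpha-actinin 2, which crosslinks thin filaments, the PDZ-LIM protein that binds it, and myozenin 2, which binds alpha-actinin and calcineurin. ACTN2 was the 1 gene of the set with binding of both DUX4 and DUXC assigned to it. ACTN2 (ENSCAFG00000010822.3, chromosome 4, 3348600 to 3415124) had 7 DUX4 peaks, all of them upstream of its TSS. They lay 4041 to 38815 bp upstream, in an intron of a neighbouring gene that the lists do not name, with fold enrichment of 4.81 to 8.22. The 7 summits fell within 34.7 kb. A window of that length that starts at a DUX4 summit held a median of 2 DUX4 summits, and 0.564% of such windows held 7 or more. The window was set from the ACTN2 summits themselves, so this share is a description. LDB3 (ENSCAFG00000016038.4) had 1 DUX4 peak, in intron 2 of 13 (chromosome 4, 34372314 to 34372653, 4219 bp downstream of the TSS). Its pileup of 25.7 was above the list median, but its fold enrichment was 5.33, below it, and the local background was 4.0, against a floor of 1.09. MYOZ2 (ENSCAFG00000012432.4, chromosome 32, 38089185 to 38132047) had 3 weak DUX4 peaks. Fold enrichment was 5.30 at the promoter peak, 2906 bp upstream of the TSS. It was 6.18 and 7.05 at the 2 peaks in intron 1, which lay in an L1MD1 and an MLT1A0 copy.

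DYSF encodes dysferlin, the membrane repair protein whose loss causes limb-girdle muscular dystrophy. With 12 assigned DUX4 peaks it had the most of the 9 genes, and the outermost summits were 195 kb apart. The gene (ENSCAFG00000009033.4) spans chromosome 17, 51008550 to 51229277. Introns of DYSF held 10 of the 12 peaks, from intron 1 to intron 40 of 54. The strongest were neighbours in intron 16, with fold enrichment of 12.9 (51137533 to 51137925, on a TTCA simple repeat) and 11.0 (51141066 to 51141395, in an L1ME4a copy). Intron 40 held peaks of 5.70 and 7.35 whose local background was 4.0 at both. The peak nearest to a TSS lay 1026 bp upstream (51230303 to 51230565, in an MLT1B copy) and had a fold enrichment of 7.48, close to the list median. The remaining peaks inside the gene ranged from 5.60 to 8.08. The last of the 12 lay in exon 23 of 27 of a gene that the lists do not name, 29009 bp upstream of DYSF (6.58). Inside the gene but assigned elsewhere were 2 more DUX4 summits toward its 3′ end, in intron 51 (9.88) and in a 3′ UTR (9.20, in an MLT1L copy).

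**Figure D2:**
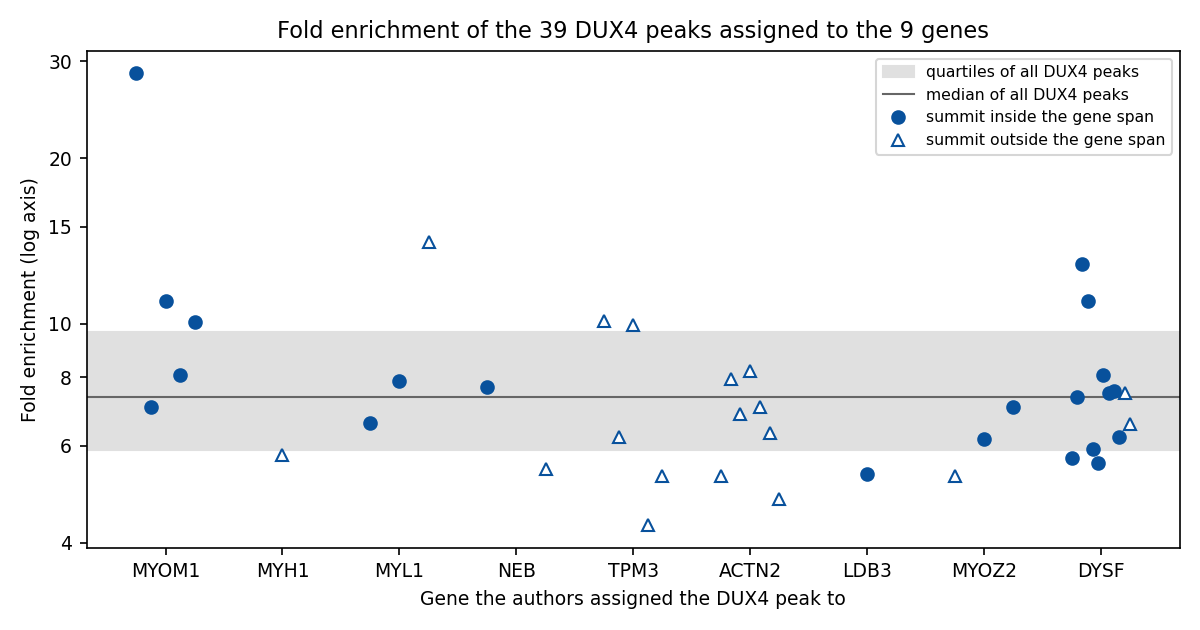
Fold enrichment (vertical log axis) of the 39 DUX4 peaks by the gene they were assigned to (horizontal axis), filled circles for summits inside the gene span and open triangles for summits outside it. The line and grey band are the median, 7.37, and quartiles, 5.89 and 9.68, of all DUX4 peaks; most points lie in the band, and the MYOM1 peak of 28.5 stands highest.

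By place, introns held 28 of the 39 DUX4 peaks (71.8%, exact Clopper-Pearson 95% interval 55.1 to 85.0%), against 41.7% of all DUX4 peaks of named genes. Distal intergenic sequence held 5 (12.8%, 4.30 to 27.4%), all at TPM3, against 46.0%. Regions the authors called promoters, up to 3 kb from a TSS, held 4 (10.3%, 2.87 to 24.2%; DYSF, MYH1, MYL1 and MYOZ2), against 7.87%. Exons held 2 (5.13%, 0.627 to 17.3%), against 2.65%. The median span of the 9 genes was 53.1 kb, against 25.5 kb over all named genes, which include many short loci such as copies of 5S_rRNA. The part of gene length in the differences of place was not tested. The intervals cover counting error only and treat peaks of 1 gene as separate. Of the 39 peaks, 9 were annotated in introns or exons of a gene other than their assigned one: all 7 at ACTN2, 1 at NEB and 1 at DYSF.

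A peak assigned to the gene and within 5 kb of a TSS was found for 8 of the 9 genes in the DUX4 list, against 37.6% of all named genes. The exception was MYOM1, whose nearest peak was 16064 bp downstream. Without the TPM3 locus the count was 7. Earlier results of these data were known when the genes were chosen, so nothing is read from this count. None of the 39 peaks was within 1 kb of a TSS, and the nearest was the DYSF peak. The share of all DUX4 peaks within 1 kb is not given here, so nothing is read from that count. In the DUXC and DUXC-ALT lists 0 of the 9 genes had a peak within 5 kb, against 5.23% and 0.434% of all named genes.

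Counted by position rather than by assignment, DUX4 summits lay inside 7 of the 9 genes (all but MYH1 and TPM3), against 56.1% of all named genes. They numbered 32, or 35.2 per Mb of gene span, against 37.5 per Mb over all named genes, so the density inside the set was close to that inside named genes as a whole. The counts were 12 for DYSF, 8 for NEB, 6 for MYOM1, 2 each for MYL1 and MYOZ2, and 1 each for ACTN2 and LDB3. Of the 32, 11 (34.4%) carried the name of another gene, against 41.0% of DUX4 summits inside named genes. Conversely 18 of the 39 assigned peaks (46.2%) lay outside the span of their gene, against 62.9% of all assigned DUX4 peaks. Without NEB, whose span also covers RIF1, the density was 41.2 per Mb.

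**Figure D3:**
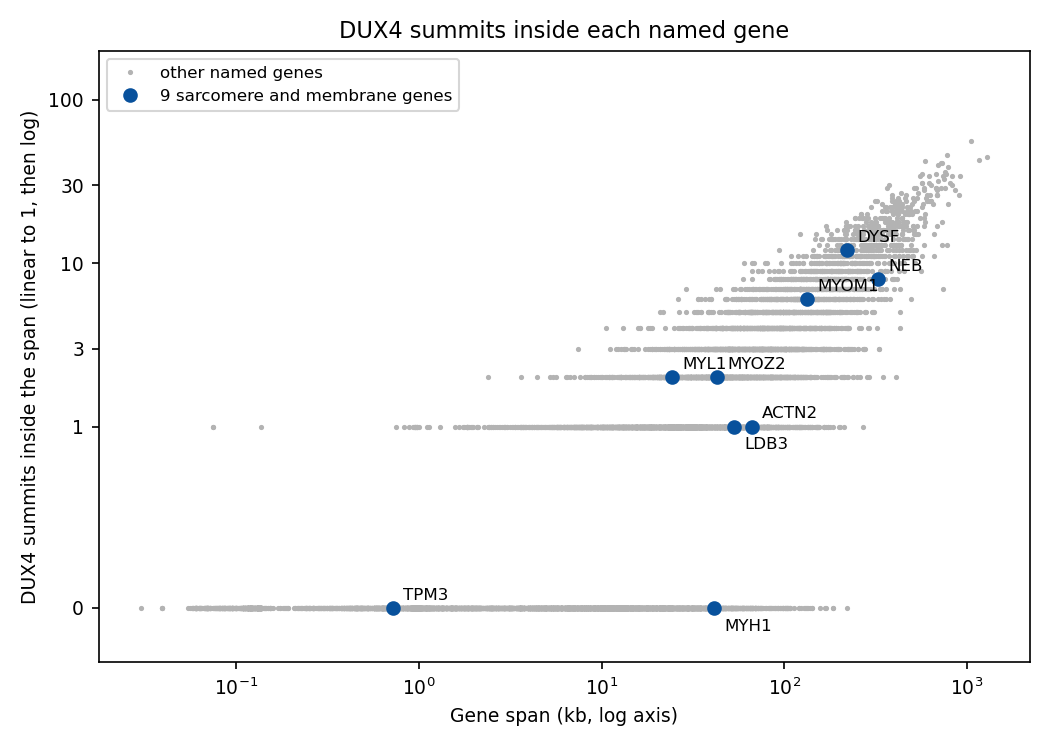
DUX4 summits inside the span of each named gene (vertical axis, linear to 1, then log) against the length of the span (horizontal log axis, kb), with the 9 sarcomere and membrane genes in blue and all other named genes in grey. Counts rise with span among the grey points, and the blue points lie within the grey cloud, DYSF highest with 12 and MYH1 and TPM3 at 0.

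Repeats held the summits of 21 of the 39 DUX4 peaks (53.8%, 37.2 to 69.9%), against 47.4% of all DUX4 peaks. LINE copies held 12 (30.8%, 17.0 to 47.6%, against 28.0%), LTR copies 4 (10.3%, 2.87 to 24.2%, against 11.6%) and SINE copies 3 (7.69%, 1.62 to 20.9%, against 5.12%). Each of these intervals includes the share of the whole list. Simple repeats held 2 (5.13%, 0.627 to 17.3%, against 0.223%), both in DYSF introns, and here the interval lay above the share of the list, on a count of 2 peaks in 1 gene. The 21 summits fell in 18 different repeat names. The L1_Canis1 and L1_Canid_ elements held 5 of them, at ACTN2, DYSF and MYOM1. Raised local background, over 3 times the floor of the list, was found at 3 of the 39 peaks, those in LDB3 intron 2 and DYSF intron 40, against 2.88% of all DUX4 peaks. Fold enrichment divides by the local background plus 1, so a raised background lowers it for a given pileup. In pileup the 3 peaks were at percentiles 80.0, 84.1 and 95.1 of the list, and in fold enrichment at 15.8, 19.4 and 49.0.

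DUXC had a single peak assigned to the set, upstream of ACTN2, so 1 of 9 genes had one, against 23.1% of all named genes. It lay at chromosome 4, 3432659 to 3432909, 17535 bp upstream of the TSS, in an L1_Canis1 copy of 6.25 kb. Its pileup was 9, its fold enrichment 4.23 and its -log10 q 2.82, which placed it at percentile 3.59 of fold enrichment in the DUXC list. It overlapped the DUX4 peak at 3432499 to 3432786 by 128 bp, and the summits were 87 bp apart. That DUX4 peak, in the same L1 copy, had a fold enrichment of 8.22, the highest of the 7 at ACTN2. Among the DUX4 peaks, 1 of 39 (2.56%, 0.0649 to 13.5%) thus overlapped a DUXC peak, against 3.92% of all DUX4 peaks. In the other direction 1 of 1 DUXC peak met the DUX4 list, against 55.7% of all DUXC peaks. The shared site did not count as shared when 50% of both peaks had to overlap, since the overlap was 44.4% of the DUX4 peak.

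A second DUXC summit lay inside ACTN2 itself, in intron 4 of 20 (chromosome 4, 3382459 to 3382730), and was assigned by the authors to a gene without a symbol. It lay in an MLT1A copy, with a pileup of 16 and a fold enrichment of 5.59. No DUX4 peak overlapped it, and the nearest DUX4 summit was 3493 bp away. That DUX4 peak, in exon 4 of 21 of ACTN2 (3385952 to 3386176), was weak, with a fold enrichment of 4.79, and it too was assigned elsewhere. ACTN2 was thus the 1 gene of 9 with a DUXC summit inside it, against 12.9% of all named genes. DUXC peaks came nearest to the other genes at MYOZ2 (11.9 kb), LDB3 (25.7 kb), MYOM1 (30.03 kb) and DYSF (45.3 kb). The median over the 9 genes was 45.3 kb, against 91.4 kb over all named genes. The quartiles, 25.7 and 277 kb against 20.8 and 228 kb, went the other way. Distances were taken to the gene span, which had a longer median in the set, and the part of span length was not tested.

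No DUXC-ALT peak was assigned to the 9 genes (0 of 9, against 2.35% of all named genes), and 0 of 9 had a DUXC-ALT summit inside, against 1.32% of all named genes. None of the 39 DUX4 peaks overlapped a DUXC-ALT peak; a count of 0 of 39 allows a share of up to 7.69% when taken as 3 counts of 39 (exact Clopper-Pearson upper limit 9.03%), against 0.119% of all DUX4 peaks. The nearest DUXC-ALT summit lay between 351 kb (MYOM1) and 32972 kb (NEB) from the gene, with a median of 1311 kb, against 1524 kb over all named genes. With 561 peaks in the list, a count of 0 at 9 genes could not be told apart from the background share.

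**Figure D4:**
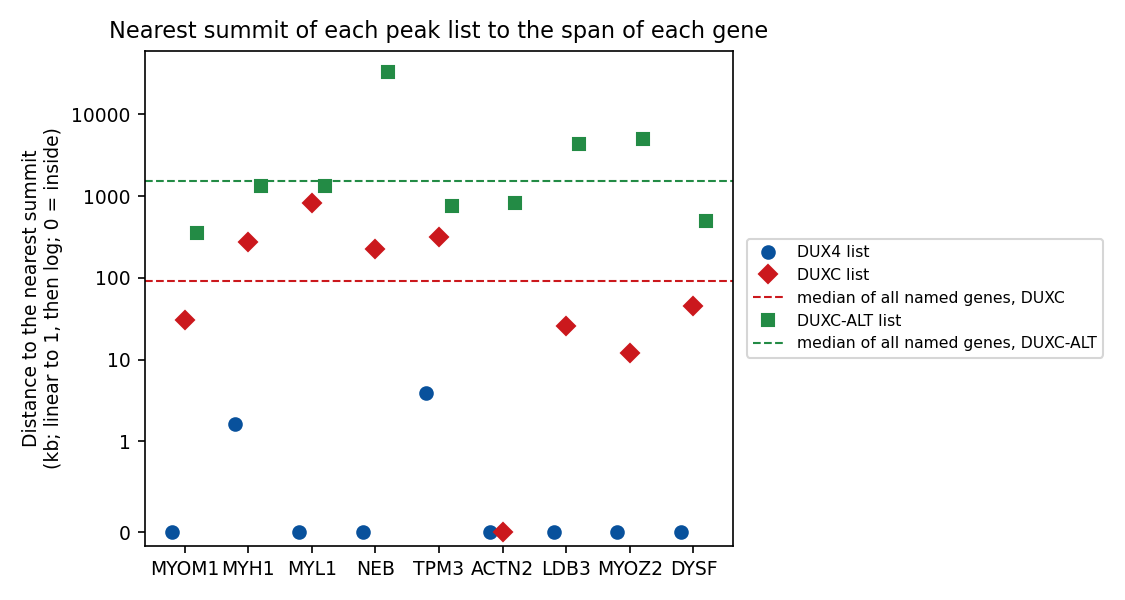
Distance from the span of each gene to the nearest summit of each list (vertical axis, kb, linear to 1, then log, with 0 for a summit inside), with dashed lines at the medians of all named genes for DUXC, 91.4 kb, and DUXC-ALT, 1524 kb. DUX4 points are at 0 for 7 genes, the DUXC point is at 0 for ACTN2, and the lowest DUXC-ALT point is MYOM1, at 351 kb.

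The other genes of the same structures were counted from a list of 108 genes that includes the 9. Of the 99 others, 47 were named in the peak lists. DUX4 peaks lay within 5 kb of a TSS at 10 of these 47 (21.3%), against 37.6% of all named genes, and DUX4 summits lay inside 24 (51.1%), against 56.1%. With the 9 included, the counts were 18 of 56 (32.1%) and 31 of 56 (55.4%). The 9 were set apart with earlier results known, and 8 of them had a peak within 5 kb. Leaving them out lowers the share of the rest, so nothing is read from the 21.3%. The DUX4 peaks within 5 kb were at 7 of 12 other Z disc genes, 1 of 14 other muscle membrane genes, 2 of 5 triad and sarcoplasmic reticulum genes, 0 of 10 other thick filament genes and 0 of 6 other thin filament genes. With the 9 included, the counts in the same order were 10 of 15, 2 of 15, 2 of 5, 2 of 13 and 2 of 8. Among the 7 Z disc symbols, 1 (PDLIM7) belonged to a locus of 1.36 kb on chromosome X. That locus is counted in the 7 but may not be the Z disc gene, which was not tested. Chromosome agreement with RefSeq was checked for the 9 genes only. The strongest DUX4 peaks of the 47 were in intron 3 of PDLIM3, which encodes an alpha-actinin-binding Z disc protein (18.2), near the leiomodin gene LMOD2 (17.1, 40460 bp from the TSS) and near MYBPH, a myosin-binding protein gene (17.1, 17949 bp from the TSS). The peaks named for LMOD2 and MYBPH were annotated in introns of other genes, the LMOD2 one in an MLT1A0 copy. None of these reached the 28.5 of the MYOM1 peak.

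DUXC had 0 peaks within 5 kb of a TSS among the 47 other genes and a summit inside 5 of them (10.6%), against 12.9% of all named genes. Among these sites were intron 1 of MYOF, which encodes the dysferlin relative myoferlin (11.5), intron 2 of the delta-sarcoglycan gene SGCD (10.4), the span of the syntrophin gene SNTB1 (7.84, in an intron of a gene without a name in the lists) and intron 2 of the junctophilin gene JPH1 (7.11). None of these named sites inside genes overlapped a DUX4 peak. Over all DUXC peaks the share was 55.7%, but nothing is read from the contrast on so few sites. Outside the genes, the DUXC peak near MYBPH (9.73) and one 317345 bp from SGCD (9.85) did overlap DUX4 peaks.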

How the data were processed

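The deposited files were 3 peak lists, 1 per factor, and all peak names within a list carry the same library name, so each list was read as 1 library's calls. Per the submitters' processing notes the tools were CASAVA, BWA 0.7.10 and MACS2 2.1.0 and the genome canFam3, with no role or order given. The control library, threshold and filters are not given in the sources used here, so values do not rank the factors. The deposited pileup was read as signal height at the summit. Its steps were about 0.92 (DUX4), 1 (DUXC) and 0.87 (DUXC-ALT), so it was scaled per list. The deposited fold enrichment is a ratio to local background, taken as (pileup + 1) / fold enrichment − 1, and the −log10 p- and q-values (p-value, q-value) in the deposited lists come from the peak caller. Nearest gene, distance to TSS, place and at most 1 repeat per peak are the authors'.

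From these, Python 3.11.15, numpy 2.4.6, pandas 2.3.3, scipy 1.17.1 and matplotlib 3.10.9 gave counts, overlaps (at least 1 bp) and exact 95% intervals, for counting error only. A gene's span ran over its transcripts named in the lists. Only peaks assigned to a gene were counted as within a distance of its TSS. A peak was in a repeat when its summit was. The floor was percentile 1 of local background. The overlap and position code was tested on simulated peaks. No test was possible with 1 library per factor. Member genes and lists were chosen with earlier results of these data known. The genes named are every member, and of the 99 others the 3 with the strongest peak per list and those with a DUXC or DUXC-ALT summit inside or within 5 kb, except some that are not reported here. Of the 108 listed symbols 107 were in the RefSeq table (UU_Cfam_GSD_1.0), used for names and chromosome agreement. Genes that no peak was nearest to are not among the named genes. A symbol carried by several loci was counted once per locus, so short copies enter every share of all named genes. No peak sequence is shown, because no canFam3 genome was used here.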

Additional observations from a re-analysis of the deposited data

How the results depend on the processing

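Under other settings 70 values were recomputed, of which 53 remained near those reported (counts and the median within 1.5 times, shares within the 95% interval) and 17 moved. Settings that leave out TPM3 were chosen after seeing the data. With fold enrichment of at least 10, the DUX4 list kept 7 peaks at the 9 genes, 1 gene with a peak within 5 kb of a TSS (MYL1), 3 genes with a summit inside and 3 of the 18 genes of the wider list within 5 kb, the median fold enrichment was 11.0 and 71.4% of summits lay in repeats. Fewer peaks kept lowers counts and raises the median by construction. The share in repeats rests on those 7 peaks, without the share of all DUX4 peaks at that setting, and nothing is read from it. The same setting left 0 DUXC peaks assigned, 0 genes with a DUXC summit inside and 0% of DUX4 peaks at DUXC; q under 1e-05 left 0 DUXC peaks assigned and 0% as well. With 50% of both peaks, the share was 0% in both directions. Within 1 kb of a TSS there were 0 genes for DUX4. Within 50 kb there was 1 for DUXC (ACTN2), and the wider list had 54 genes for DUX4 and 8 for DUXC. Shares of all named genes at 1 and 50 kb are not given here, so nothing is read from these counts. They take only peaks assigned to the gene. DUXC summits assigned to other genes lay 11.9 kb from the MYOZ2 span, 25.7 kb from LDB3, 30.03 kb from MYOM1 and 45.3 kb from DYSF. Without TPM3 there were 34 DUX4 peaks, 82.4% of them in introns. No paired analysis was possible because each group has 1 library. Depth is unknown from peak lists, so a gene without a DUXC or DUXC-ALT peak is only a gene without a called peak.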
